A study of Mus musculus with 11 samples.

Results

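The genes followed here encode the machinery with which a macrophage loads peptides onto major histocompatibility complex (MHC) class II molecules. They are H2-Aa, H2-Ab1, H2-Eb1, H2-DMa, H2-DMb1, Cd74 and Ciita, picked by gene symbol with earlier results of these data known. All 7 were found among the 31936 genes of the table, and all 7 passed the filter on low values that left 12969 genes for testing. RNA was sequenced from peritoneal macrophages of female mice, drawn into the abdominal cavity by thioglycollate, a sterile irritant. In the control group, 5 libraries (replicates 1, 2, 3, 4 and 6) came from cells given a negative control. In the mimic group, 6 libraries (replicates 1 to 6) came from cells given a mimic of microRNA-150 (miR-150), a synthetic RNA that stands in for the mature microRNA. The labels give no strain, age, dose, exposure time or way of delivery, and do not say whether the replicates were separate animals or cultures. The p-values are therefore set by the spread of these libraries, and that spread could be technical. A further control sample was dropped by the submitters for poor fragmentation and was not analysed here. Such libraries do not measure mature microRNAs, so the uptake of the mimic was not checked.

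Class II molecules are pairs of an alpha and a beta chain that carry peptides from engulfed material to the cell surface, where helper T cells read them. Newly made pairs are held by the invariant chain, the product of Cd74, which blocks the peptide groove and directs them to endosomes. There proteases cut the invariant chain down, and the DM heterodimer exchanges its last fragment for a peptide. The genes are switched on together by CIITA, the product of Ciita, a coactivator that binds no DNA itself and is recruited by proteins seated on the X and Y boxes of their promoters. In macrophages the classic inducer of Ciita is interferon-gamma, acting in part through IRF1.

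The promoter boxes are shown because they are the feature the class II genes share and through which CIITA reaches them. Promoters of 300 bases, from 250 before to 50 after the annotated start, were taken from RefSeq on build GRCm38.p6. Those of H2-Aa, H2-Eb1, H2-DMa and H2-DMb1 are described below. H2-Ab1 and Ciita had no entry, and the promoter of Cd74 is not reported here. Capitals mark an X box (AAC, any 3 bases, TGATG), a Y box (GATTGG) or a cyclic AMP response element (CRE, TGACGTCA), searched on both strands. These letters were chosen after reading the promoters, so the matches are a description. Each line runs 5′ to 3′ on the strand of its gene, and H2-DMb2 and H2-Ob are class II genes outside the 7.
H2-Aa: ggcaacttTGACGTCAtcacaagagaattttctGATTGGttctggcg
H2-Eb1: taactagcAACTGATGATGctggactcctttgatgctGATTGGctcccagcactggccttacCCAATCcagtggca
H2-DMb2: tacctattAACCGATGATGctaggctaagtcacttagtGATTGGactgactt
H2-Ob: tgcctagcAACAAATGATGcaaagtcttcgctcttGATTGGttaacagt
The stretches lie at chr17:34287859-34287905 on the minus strand for H2-Aa, and on the plus strand at chr17:34305770-34305845 for H2-Eb1, chr17:34145120-34145171 for H2-DMb2 and chr17:34238812-34238860 for H2-Ob. H2-DMb1 held the same X box as H2-Eb1, AACTGATGATG, beginning at position -92 from its start, and a Y box at -62. Between the X and Y boxes lay 18 bases in H2-Eb1, 19 in H2-DMb1, 19 in H2-DMb2 and 16 in H2-Ob. H2-Aa had no match to these X box letters, but a CRE began at position -74 and a Y box at -49. H2-Eb1 also held a Y box in reverse, which overlapped none of the other matches. H2-DMa had 2 entries, chr17:34122582-34122881 with no match and chr17:34125268-34125567 with a lone Y box at -199. Both lie inside the span of the gene given below. Other starts of H2-DMa were not searched, so these entries do not show whether the gene has the boxes. Of all 32851 promoters of this length, 0.615% held the X box, 16.1% the Y box and 1.79% the CRE. Only 5 promoters (0.0152%) held an X box followed by a Y box within 25 bases: those of H2-Eb1, H2-DMb1, H2-DMb2, H2-Ob and 1700048F04Rik.

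By transcript length, Cd74 stood highest of the 7 and Ciita lowest. On the scale of log2 CPM (reads of a gene scaled to a common library total) per kilobase, Cd74 had a control mean of 7.80 ± 0.10 (SD, n = 5), H2-Aa 6.78 ± 0.11 and H2-Ab1 6.71 ± 0.10. H2-Eb1 followed at 5.57 ± 0.10, H2-DMb1 at 4.43 ± 0.07, H2-DMa at 3.48 ± 0.05 and Ciita at -0.24 ± 0.19. The neighbours H2-Aa and H2-Ab1 overlapped within their spread, while the ranges of the other neighbours in this order did not overlap in the control libraries. In the mimic libraries the order was the same. Together the 7 genes took from 0.0545% to 0.0785% of the reads of a library, and the lowest count of any of them was the 90 reads of Ciita in one library. By the GENCODE M21 annotation of GRCm38, H2-Aa lies at chr17:34282744-34287823, H2-Ab1 at chr17:34257689-34269419, H2-Eb1 at chr17:34305867-34316674, H2-DMa at chr17:34119541-34139101, H2-DMb1 at chr17:34153072-34160230 and Ciita at chr16:10480059-10528418.

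With the mimic, none of the 7 class II presentation genes was called higher or lower. The test was limma on log2 CPM with Benjamini-Hochberg adjustment over the 12969 genes and a threshold of 0.05 on the adjusted p, under which 30.0% of all tested genes were called (15.4% higher and 14.6% lower). With upper quartile scaling the calls over all genes went from 1997 higher and 1895 lower to 1483 and 2470, and 1 of the 7 genes, H2-DMb1, was then called lower at -0.21 (limma adjusted p = 0.0418). Of the 7 genes, 6 had a mean below that of the controls, with a median log2 fold change of -0.10 beside 0.00071 over all tested genes. At an unadjusted p below 0.05 there was 1 gene, H2-DMb1. The 2 groups overlapped for all 7 genes, while 14.9% of all tested genes had groups that did not overlap. In the authors' deposited table, too, none of the 7 had an adjusted p below 0.05. In whole-population RNA, a change in the number of cells with class II transcripts and a change in transcripts per cell cannot be told apart.

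**Figure D1:**
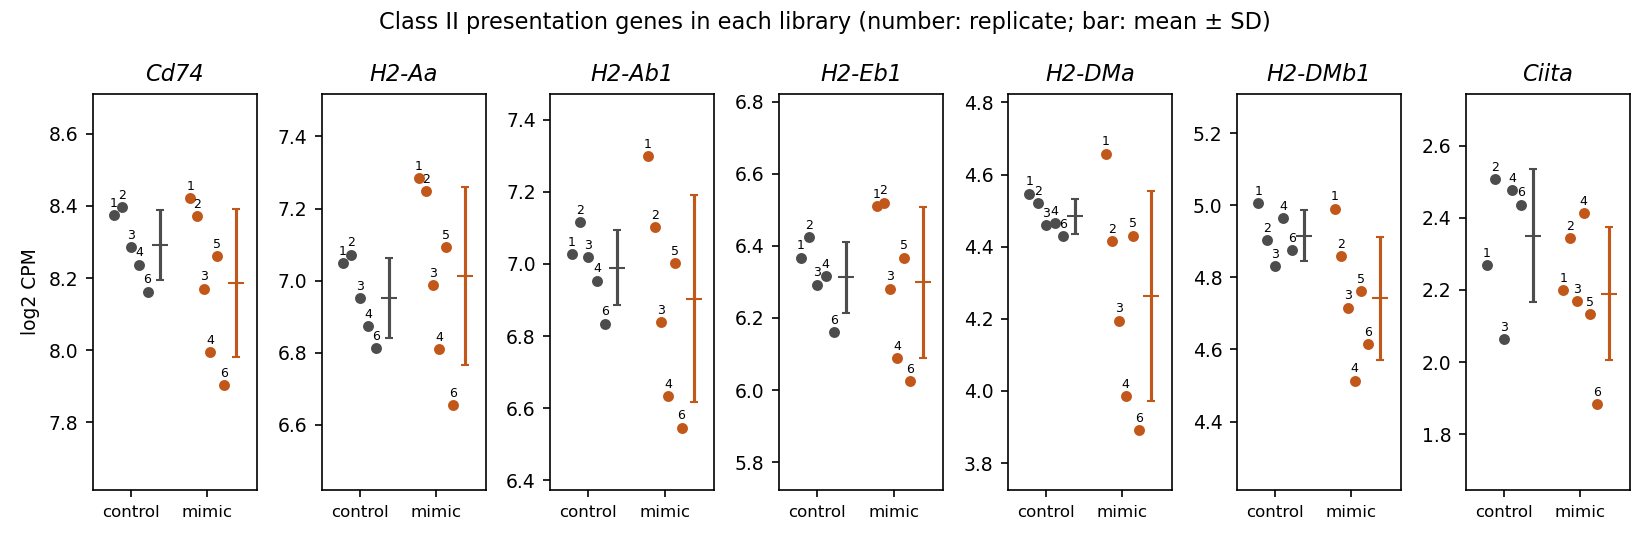
Log2 CPM of each class II presentation gene in each library, controls in grey and mimic libraries in orange, with the replicate number beside each point and the group mean ± SD as a bar. The groups overlap for every gene, and mimic libraries 4 and 6 lie low for all genes but Ciita, for which only mimic 6 does.

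The alpha chain gene H2-Aa read 7.05, 7.07, 6.95, 6.87 and 6.81 log2 CPM in control replicates 1, 2, 3, 4 and 6. In mimic replicates 1 to 6 it read 7.28, 7.25, 6.99, 6.81, 7.09 and 6.65. Mimic libraries 1, 2 and 5 were above every control, and mimic libraries 4 and 6 below every control. Its log2 fold change was 0.06 ± 0.10 (SE; limma adjusted p = 0.676), with a 95% confidence interval from -0.16 to 0.28. H2-Ab1 encodes the beta chain that pairs with it. H2-Ab1 read 7.03, 7.12, 7.02, 6.95 and 6.83 in the controls and 7.30, 7.10, 6.84, 6.63, 7.00 and 6.55 in mimic libraries 1 to 6. Here too the mimic values ran from above all controls in library 1 to below all controls in libraries 4 and 6, and the log2 fold change was -0.09 ± 0.12 (limma adjusted p = 0.601). H2-Eb1, the beta chain of the other murine class II molecule, read 6.37, 6.43, 6.29, 6.32 and 6.16 in the controls. In mimic libraries 1 to 6 it read 6.51, 6.52, 6.28, 6.09, 6.37 and 6.03, with libraries 1 and 2 above and libraries 4 and 6 below every control. Its log2 fold change of -0.01 ± 0.08 was the nearest to 0 among the 7 genes (limma adjusted p = 0.917), with an interval from -0.19 to 0.17.

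Cd74, the invariant chain gene, read 8.38, 8.40, 8.29, 8.24 and 8.16 log2 CPM in control replicates 1, 2, 3, 4 and 6 and 8.42, 8.37, 8.17, 8.00, 8.26 and 7.90 in mimic replicates 1 to 6. Mimic libraries 4 and 6 were below every control and library 1 was just above them. The log2 fold change was -0.10 ± 0.08 (limma adjusted p = 0.362), with an interval from -0.28 to 0.07.

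The DM genes had the lowest estimates of the 7. H2-DMa, the alpha chain of the peptide exchanger, read 4.55, 4.52, 4.46, 4.46 and 4.43 in the controls and 4.66, 4.42, 4.19, 3.99, 4.43 and 3.89 in mimic libraries 1 to 6. The controls lay close together, while 4 mimic libraries were below all of them and library 1 above them. Its log2 fold change was -0.22 ± 0.11 (limma adjusted p = 0.140), with an interval from -0.46 to 0.015. H2-DMb1, a beta chain of the exchanger, read 5.01, 4.90, 4.83, 4.96 and 4.88 in the controls and 4.99, 4.86, 4.72, 4.51, 4.76 and 4.61 in the mimic libraries. No mimic library exceeded the highest control, and 4 were below the lowest. Its log2 fold change was -0.17 ± 0.07 (limma adjusted p = 0.0760), with an interval from -0.33 to -0.02. Both DM genes passed the threshold as lower without mimic replicate 1, H2-DMa at -0.30 (limma adjusted p = 0.0103) and H2-DMb1 at -0.22 (0.00739), a setting in which 19.3% of all tested genes were called lower. Both also passed in a voom fit that weights each library by its quality, at -0.27 (adjusted p = 0.00976) and -0.20 (0.00848), where 20.5% of all tested genes were called lower. H2-DMb1 has a near copy, H2-DMb2, and how reads shared by the pair were counted is not known.

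Ciita, the coactivator, read 2.27, 2.51, 2.06, 2.48 and 2.44 in the controls and 2.20, 2.34, 2.17, 2.41, 2.13 and 1.88 in mimic libraries 1 to 6. Only mimic library 6 lay outside the range of the controls. The log2 fold change was -0.16 ± 0.11 (limma adjusted p = 0.261), with an interval from -0.39 to 0.06. This estimate rests on 90 to 129 reads per library, beside 5421 to 7584 for Cd74.

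**Figure D2:**
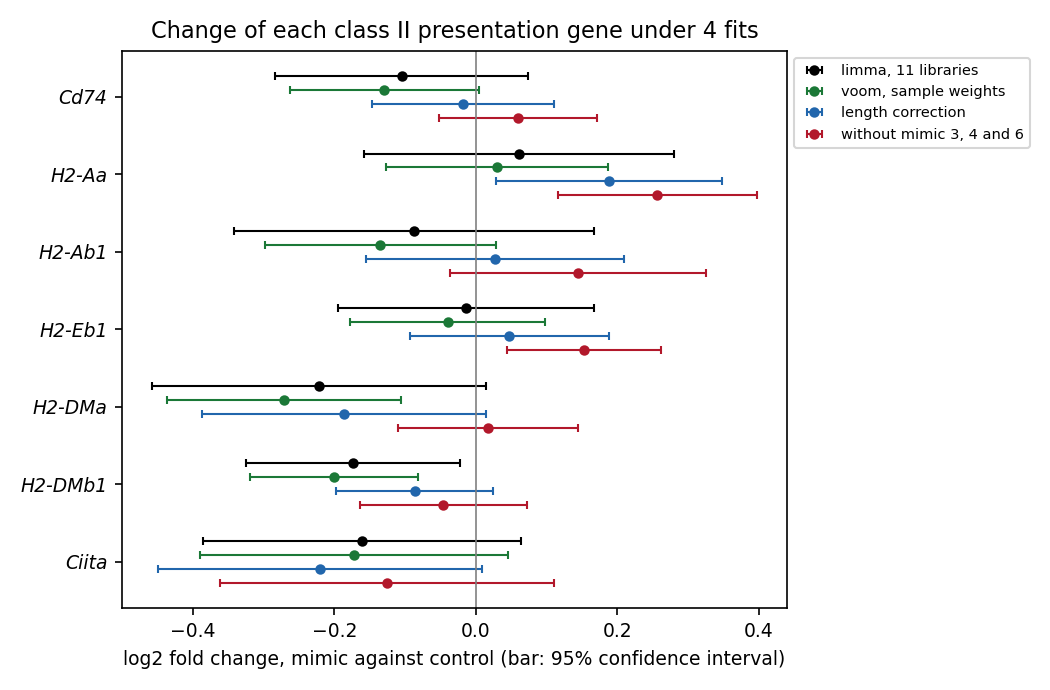
Log2 fold change of each gene, mimic against control, with its 95% confidence interval in 4 fits: limma on all 11 libraries, voom with sample weights, limma after a correction for transcript length, and limma without mimic replicates 3, 4 and 6. All intervals of the first fit include 0 except that of H2-DMb1, and the fit without the 3 libraries places every gene but H2-DMb1 and Ciita above 0.

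The spread among the mimic libraries was wider than among the controls. The SD of the mimic libraries was 6.01 times that of the controls for H2-DMa and from 2.11 to 2.75 times for H2-Aa, H2-Ab1, H2-Eb1, H2-DMb1 and Cd74. Over all tested genes the median ratio was 1.40, and for Ciita the ratio was 0.999. The genes moved through the libraries together. Over the 11 libraries, with each gene taken as its deviation from its group mean, the 15 pairs among the 6 genes other than Ciita had a Pearson r from 0.82 to 0.997. The tightest pair was H2-Aa with Cd74, at 0.997. Ciita paired with the 6 others at r from 0.11 to 0.27, on far fewer reads. These correlations share libraries, scaling and depth, and are given as a description.

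The mean deviation of H2-Aa, H2-Ab1, H2-Eb1 and Cd74 was 0.28 in mimic library 1, 0.21 in library 2 and 0.08 in library 5. It was -0.03 in library 3, -0.22 in library 4 and -0.32 in library 6, while the controls lay between -0.14 and 0.12. Another property of the libraries is given beside it, and a link between the deviation and this property was not tested. The slope of all genes' deviations on transcript length, per doubling of length, was -0.092 in mimic library 1, -0.012 in library 2 and -0.031 in library 5, but 0.031, 0.061 and 0.043 in libraries 3, 4 and 6. In the controls the slope lay between -0.015 and 0.0096, a range that holds mimic library 2. Mimic library 6 had the lowest mean deviation, but the slope was highest in mimic library 4. The 6 genes that moved together have transcripts of 1.128 to 2.005 kb, and that of Ciita is 6.007 kb. After a correction of each library for transcript length, none of the 7 genes was called. H2-Aa was then at 0.19 ± 0.07 (limma adjusted p = 0.0687), H2-Ab1 at 0.027, H2-Eb1 at 0.047, Cd74 at -0.018, H2-DMb1 at -0.086, H2-DMa at -0.19 and Ciita at -0.22.

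Without mimic libraries 3, 4 and 6, those with a positive slope, the median of the 7 genes was 0.06. These are also the 3 mimic libraries in which the 4 genes averaged above lay below their group mean, so the choice of libraries sets the upward move, and the values that follow are a description. In that fit H2-Aa was called higher at 0.26 (limma adjusted p = 0.0177), beside 9.36% of all tested genes called higher. H2-Eb1 was at 0.15 (adjusted p = 0.0505), H2-Ab1 at 0.14, Cd74 at 0.059 and H2-DMa at 0.017, while H2-DMb1 and Ciita stayed below 0. The estimates of the chain genes, Cd74 and H2-DMa thus stood on opposite sides of 0 with and without these 3 libraries, except that of H2-Aa.

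**Figure D3:**
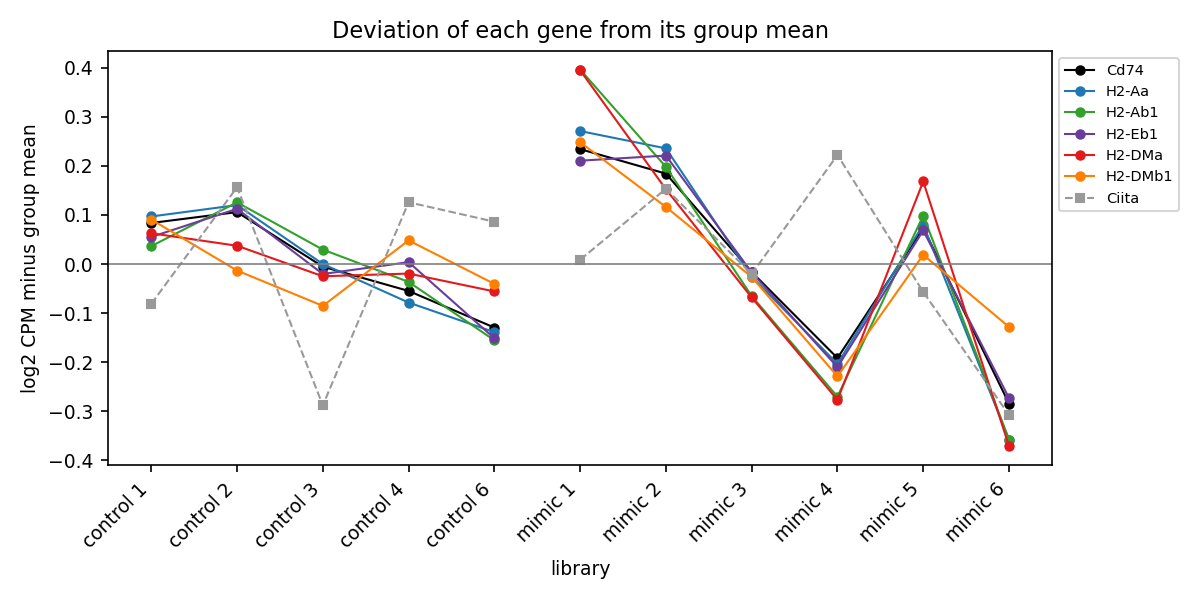
Deviation of each class II presentation gene from its group mean in each library, in log2 CPM, with the genes as lines and Ciita dashed. The 6 genes other than Ciita follow one course, high in mimic libraries 1 and 2 and low in mimic libraries 4 and 6, while Ciita does not.

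The difference between 2 genes within a library does not depend on how the library is scaled, and it separated the groups more clearly than the single genes did. All 21 pairs of the 7 genes were compared by an exact two-sided permutation test of the group labels, whose smallest possible p is 0.00216. After Benjamini-Hochberg adjustment over the 21 pairs, 7 passed. The share of pairs of other genes that would pass was not measured, so this count has no background beside it. Pairs that share a gene are also not independent. H2-Aa minus Cd74 read from -1.36 to -1.33 log2 units in the controls and from -1.25 to -1.12 in the mimic libraries. The groups did not overlap, and H2-Aa stood 0.17 higher relative to Cd74 with the mimic (exact permutation p = 0.00216, adjusted 0.0152). H2-Eb1 minus Cd74 read from -2.01 to -1.92 in the controls and from -1.91 to -1.85 in the mimic libraries, a shift of 0.09 (exact permutation p = 0.00216, adjusted 0.0152). The groups of this pair lay side by side without overlap.

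H2-Aa minus H2-DMa read from 2.38 to 2.55 in the controls and from 2.63 to 2.83 in the mimic libraries, a shift of 0.28 (exact permutation p = 0.00216, adjusted 0.0152). The shift was 0.15 for H2-Aa minus H2-Ab1 and 0.13 for H2-Ab1 minus H2-DMa (exact permutation adjusted p = 0.0273 for each). It was 0.23 for H2-Aa minus H2-DMb1 and 0.21 for H2-Eb1 minus H2-DMa (exact permutation adjusted p = 0.0455 for each). So H2-Aa stood higher with the mimic relative to H2-Ab1, Cd74 and both DM genes, and H2-DMa lower relative to all 3 chain genes. No pair with Ciita passed, its differences from the other 6 genes having exact permutation adjusted p of 0.269 or more. After the length correction, an alternative added once the data had been seen, 9 pairs passed, among them H2-Aa minus Ciita at 0.41 beside 0.22 without the correction (exact permutation adjusted p = 0.0260). The number of pairs past the threshold was 0 without control replicate 6, where the lowest exact permutation adjusted p was 0.05. It was also 0 without any of mimic replicates 2, 3 and 4 (lowest adjusted p 0.0556 for each). Without mimic replicates 3, 4 and 6 together it was 0 as well (lowest adjusted p 0.075). Without control replicate 3 or 4 it was 3, without mimic replicate 5 it was 4, and without mimic replicate 1 or 6 it was 8. The smallest p that could be reached was 0.00476 with a control left out, 0.00794 with a mimic library left out and 0.0179 without mimic replicates 3, 4 and 6. The shift of H2-Aa against Cd74 itself stayed between 0.16 and 0.18 when single libraries were left out and was 0.20 without those 3 libraries.

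**Figure D4:**
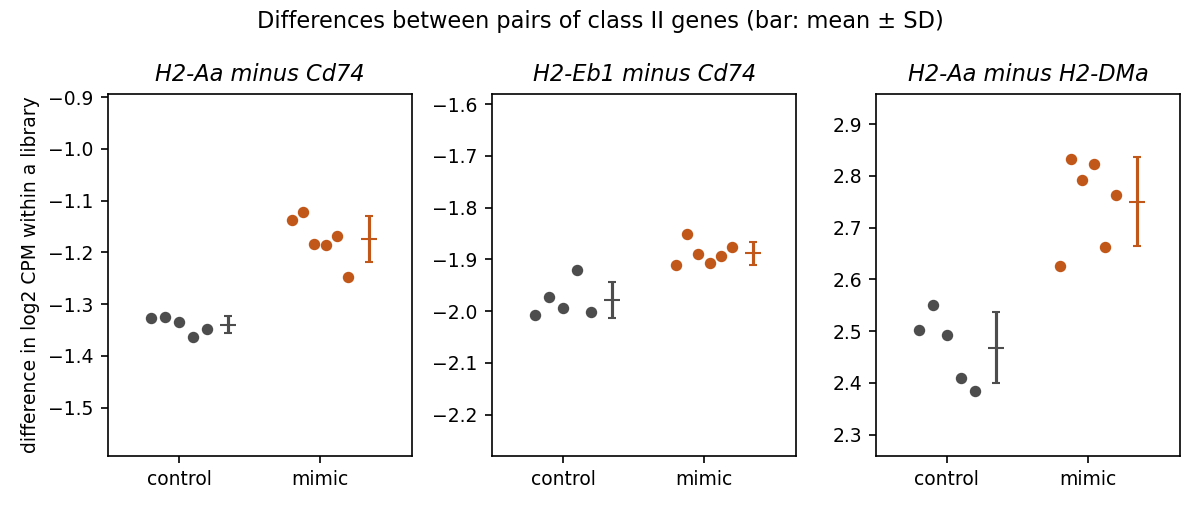
Difference in log2 CPM between 2 genes within each library for the 3 pairs whose groups did not overlap, with controls in grey, mimic libraries in orange and the group mean ± SD as a bar. H2-Aa minus Cd74 lies between -1.36 and -1.33 in the controls and between -1.25 and -1.12 in the mimic libraries.

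Upstream of Ciita, transcripts of the interferon-gamma route moved in both directions. Of the 6 genes reported, 3 passed as higher and 2 as lower, and the median log2 fold change was 0.028. Over all tested genes the shares were 15.4% higher and 14.6% lower, against which the counts of this and the next lists are to be read. Irf1, an interferon-induced transcription factor, rose by 0.36 ± 0.07 and Jak2, a kinase of the receptor, by 0.23 ± 0.06 (limma adjusted p = 0.00236 and 0.00654). Ifngr1, the ligand-binding chain of the interferon-gamma receptor, fell by 0.19 ± 0.05 (limma adjusted p = 0.00693). The groups did not overlap for Irf1, Jak2 or Ifngr1. The calls of Jak1 (higher) and Usf1 (lower) were the weakest, with limma adjusted p of 0.0378 and 0.0355, and each held in only 3 of the 11 fits that left out a single library (highest adjusted p 0.0825 and 0.0806). The higher calls of the list numbered 2 to 3 and the lower calls 1 to 2 when single libraries were left out.

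The proteins that sit on the class II promoters showed no call. Of the 7 genes of this enhanceosome, Rfx5, Rfxap and Rfxank of the X box complex, Nfya, Nfyb and Nfyc of the Y box complex and Creb1, none was called and the median was 0.03. Those with the smallest p were Rfxank at -0.17 ± 0.08 (limma adjusted p = 0.107), Rfx5 at 0.13 ± 0.09 (0.274) and Rfxap at 0.06 ± 0.05 (0.371). Rfxank passed as lower without mimic replicate 1 (-0.21, limma adjusted p = 0.0314) and in the voom fit (-0.19, 0.0380), where the count was 1 of 7. Among 8 regulators of Ciita in myeloid cells, 2 were called higher and none lower, a total share of calls below the 30.0% over all tested genes. Socs1, an inhibitor of interferon signalling, rose by 0.67 ± 0.16 (limma adjusted p = 0.00513), on 28 to 72 reads per library. Il10ra, a chain of the receptor for interleukin-10, rose by 0.15 ± 0.05 (limma adjusted p = 0.0289). Leaving out control replicate 1, 2, 3 or 6 or mimic replicate 2 cost Il10ra its call (limma adjusted p from 0.0561 to 0.0680), so that 1 of the 8 was higher. Spi1, the myeloid transcription factor PU.1, was at -0.17 ± 0.07 (limma adjusted p = 0.0812) and passed as lower without mimic replicate 1 (-0.22, adjusted p = 0.00664) and in the voom fit.

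Among 12 genes of endosomal antigen and invariant chain processing (proteases, the reductase Ifi30 and the protease inhibitor Cst3), 4 were called higher and 2 lower, with a median of 0.08. Sppl2a, the membrane protease that clears the last fragment of the invariant chain, went from 7.78 to 7.92 log2 CPM in the controls to 8.32 to 8.50 in the mimic libraries, a rise of 0.54 ± 0.04. Ctsc, cathepsin C, rose by 0.44 ± 0.04, and these 2 genes had no overlap between groups. Ctse, cathepsin E, rose by 0.47 ± 0.11 (limma adjusted p = 0.00565) on 41 to 87 reads per library. Ctss, cathepsin S, rose by 0.16 ± 0.05 (limma adjusted p = 0.0334), a call that held in 6 of the 11 fits that left out a single library. The lower genes were Ifi30, which reduces disulphide bonds of antigens, at -0.27 ± 0.07 (limma adjusted p = 0.0103), and Ctsd, cathepsin D, at -0.25 ± 0.07 (0.0108). Ifi30 went from 8.77 to 8.88 log2 CPM in the controls to 8.28 to 8.75 with the mimic, without overlap. Ctsd lost its call without mimic replicates 3, 4 and 6 (-0.13, limma adjusted p = 0.0765). Without the filter on low values, the calls of Ctss, Ifi30 and Ctsd were lost (limma adjusted p = 0.129, 0.0829 and 0.0816). When single libraries were left out, 3 to 6 of the 12 were called higher and 2 to 3 lower.

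Of 5 genes for the ubiquitination and turnover of surface class II, 2 were called higher. March1, the ubiquitin ligase that marks class II molecules for removal from the surface, went from 6.45 to 6.65 log2 CPM in the controls to 6.79 to 6.95 in the mimic libraries, a rise of 0.34 ± 0.04. Ube2d3, a ubiquitin-conjugating enzyme, rose by 0.15 ± 0.05 (limma adjusted p = 0.0273), and Cd83, which opposes March1, was at -0.08 ± 0.04 (0.133). Ube2d3 lost its call, leaving 1 of 5, when control replicate 3, 4 or 6 or mimic replicate 3, 4 or 6 was left out (limma adjusted p from 0.0530 to 0.0632). Of 4 genes whose products meet CD74 at the surface, Cxcr4 fell by 0.19 ± 0.06 (limma adjusted p = 0.0195) and Cd44 rose by 0.14 ± 0.04 (0.0253). Mif, the ligand of CD74, was at -0.26 ± 0.12 (limma adjusted p = 0.121). The call of Cxcr4 was lost without control replicate 1 or 2 (limma adjusted p = 0.0610 and 0.0537), and that of Cd44 without control replicate 4 or 6 or mimic replicate 3 or 6 (0.0577 to 0.0699). Mif passed as lower without mimic replicate 1 (-0.36, adjusted p = 0.00436) and in the voom fit, which brought the lower calls of these 4 genes to 2.

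Transcripts of MHC class I presentation, which shows peptides from inside the cell, rose with the mimic. Of 7 class I genes, 6 were called higher and none lower, with a median of 0.59, and that count was the same when single libraries were left out. Nlrc5, the coactivator that is to class I what CIITA is to class II, rose by 1.12 ± 0.07. Tap1, a subunit of the peptide transporter, rose by 1.10 ± 0.07 and B2m, the light chain of class I, by 0.63 ± 0.06. H2-D1 was the member not called, at 0.05 ± 0.08 (limma adjusted p = 0.652), and how reads shared with similar class I genes were counted is not known. Without mimic replicates 3, 4 and 6 it was called higher (0.22, limma adjusted p = 0.000347), making 7 of 7. Nlrc5 minus Ciita read from 2.33 to 3.15 log2 units in the controls and from 3.80 to 4.38 in the mimic libraries, a shift of 1.28. This pair was chosen after its values were seen, so no test is given. The difference between the 2 gene groups as a whole was not tested.

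**Figure D5:**
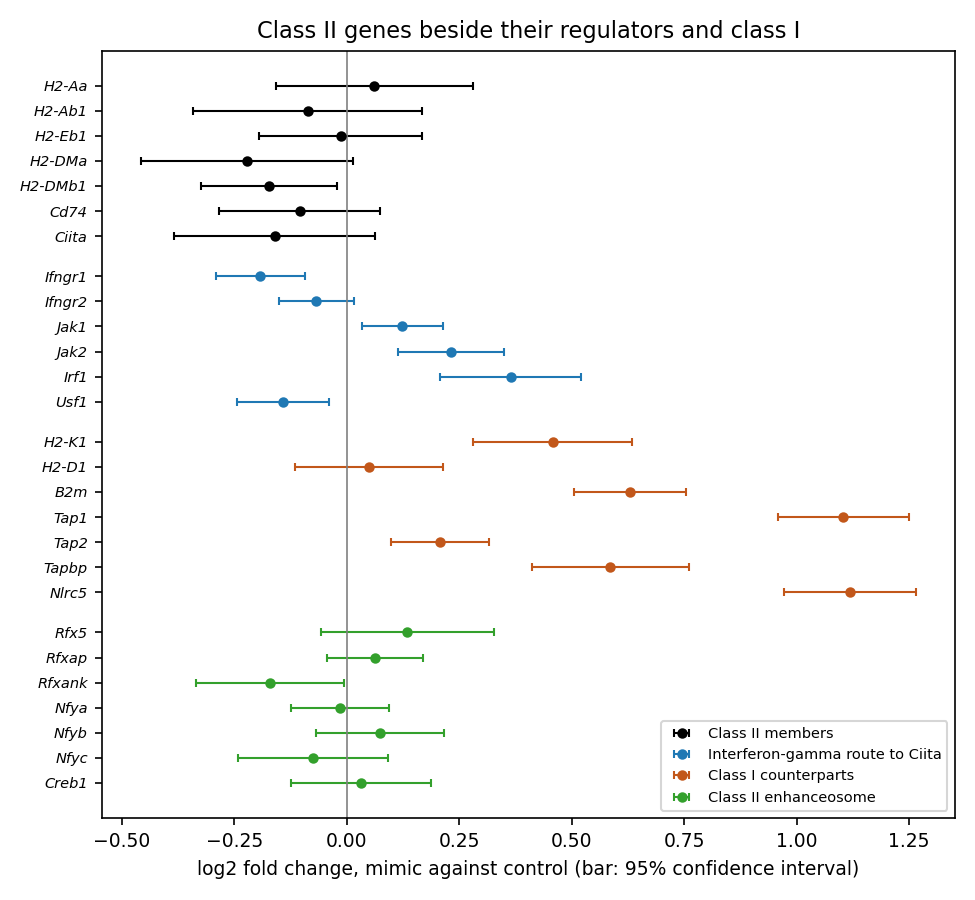
Log2 fold change, mimic against control, with its 95% confidence interval for the 7 class II presentation genes, the interferon-gamma route to Ciita, the class I genes and the proteins of the class II promoter complex. Tap1 and Nlrc5 lie above 1, and the class II genes lie between -0.22 and 0.06.

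Other class II loci were near the limit of detection. H2-DMb2 had 9 to 28 reads per library and a log2 fold change of -0.48 ± 0.23 (limma adjusted p = 0.125), passing as lower without control replicate 4 at -0.66 (0.0368). H2-Ob, a chain of the inhibitor of the DM exchanger, had 2 to 8 reads per library, H2-Oa, its other chain, 0 to 3 and H2-Eb2 0 to 4. H2-Ea-ps, the pseudogene form of the alpha chain that would pair with the product of H2-Eb1, had 1 read in all 11 libraries together.

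The libraries held 18538509 to 22668862 reads in the controls and 20313901 to 25473814 with the mimic. The labelled cell type was checked against markers. All 8 macrophage markers were tested, with a summed level of 17777 to 20592 CPM in the controls and 15933 to 20299 with the mimic. Of these, Fcgr1 and Adgre1 rose and Lyz2 and Cd14 fell. Professional antigen-presenting cells of other kinds also carry class II transcripts. Of 10 dendritic cell markers 5 could be tested and 3 were called lower (Itgax, Batf3 and Cd209a). The call of Cd209a rests on 1 to 17 reads per library. Zbtb46 at -0.04 ± 0.14 (limma adjusted p = 0.845) and Clec9a at 0.04 ± 0.17 (0.873) were not called. They had 33 to 67 and 20 to 40 reads per library. The summed level of the 10 markers was 862 to 923 CPM in the controls and 691 to 741 with the mimic. Itgax, which macrophages also express, made up most of that sum at 9.81 ± 0.04 log2 CPM in the controls. The markers too low to test were Flt3 with 0 to 7 reads per library, Siglech with 0 to 3, Xcr1 with 4 to 15, Ccr7 with 3 to 15 and Dpp4 with 5 to 17. Of 7 B cell markers 3 could be tested and 1, Ighm, was called lower, with a sum of 3.43 to 5.39 CPM in the controls and 3.04 to 4.00 with the mimic. Ighm was called on 16 to 61 reads per library. Pax5, the B cell lineage factor, had 0 to 2 reads per library. Of 5 markers of resident large peritoneal macrophages 4 were tested and 2, Cd5l and Timd4, were called higher. Timd4 was called on 9 to 42 reads per library (limma adjusted p = 0.0489). Gata6 was at -0.37 ± 0.15 (limma adjusted p = 0.0654) and Icam2 at -0.03 ± 0.12 (0.850), neither called. The sum was 121 to 129 CPM in the controls and 142 to 155 with the mimic, and Cd5l held 11657 of its 12670 control reads. None of the 6 T cell, 3 natural killer cell or 4 eosinophil and mast cell markers reached the level for testing, and their sums were at most 0.761, 0.507 and 0.954 CPM in any library. Of 4 neutrophil markers 1, S100a8, could be tested and was lower, with a sum of 12.9 to 16.5 CPM in the controls and 7.85 to 15.0 with the mimic. S100a8 held 1503 of the 1515 control reads of that sum, and S100a9 had 0 to 1 reads per library. None of the 4 fibroblast and mesothelium markers was called, with sums of 23.3 to 33.5 and 16.6 to 32.0 CPM. The part of other cells in the class II levels was not tested.

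The 8 genes whose course over the 11 libraries was most like the mean of H2-Aa, H2-Ab1, H2-Eb1 and Cd74 were Ifngr1, Naaa, Dirc2, Csf1r, Itm2b, Fam134a, Crtap and Dnal4. Likeness was the Pearson r of deviations from the group means, and it ran from 0.977 for Ifngr1 to 0.961 for Dnal4. Of the 9986 genes compared, 160 (1.60%) had an r above 0.9, all points sharing the same libraries and depth. Ifngr1, described above, Dirc2, a membrane transporter, at -0.24 ± 0.06 and Fam134a, a reticulon-like protein of the endoplasmic reticulum, at -0.24 ± 0.06 were called lower (limma adjusted p = 0.00693, 0.00645 and 0.0122). The other 5 were not called, among them Csf1r, the receptor for the macrophage growth factor, at -0.10 ± 0.05, and Naaa, a lysosomal amidase, at -0.16 ± 0.06.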

How the data were processed

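Expression was measured by RNA sequencing in 11 libraries, grouped by sample title. The authors deposited log2 CPM. The tools in the submitters' processing notes are STAR, Subread with featureCounts, and edgeR. Their versions, the genome build, annotation and strand setting are not given in the sources used here. Each value is the log2 of whole reads plus 0.5 over a scaled library total, and 100% of values gave whole reads within 0.01. The authors' deposited table also gives log2 fold changes, confidence limits and p-values, read for comparison only.

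Genes were tested if 5 or more libraries had a log2 CPM of -1 or more. The test used limma 3.58.1 (R 4.3.3, statmod 1.5.0) with a group term, intensity trend and robust moderation. On simulated data it recovered 48% of log2 changes of -0.5 and of 0.5, 78% of -1 and 98% of 1. Smaller changes were not simulated. The log scale understates changes of genes with few reads. Lengths are of the longest protein-coding transcript in GENCODE M21, found for 99.7% of tested genes, and the length correction was a lowess with span 0.3. Other tools were pandas 2.3.3, numpy 2.4.6, scipy 1.17.1 and matplotlib 3.10.9.

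The 7 genes, the lists and the tests were chosen with earlier results of these data known. Named genes are the 7, up to 3 tested genes per list by smallest p, list members too low to test, the 8 genes most alike (mean log2 CPM 1 or more) and markers of other cells. One gene of the interferon-gamma list and one B cell marker are not reported here. Jak1, Usf1, H2-D1, Ctss, Ifi30, Ctsd, Cst3, Gata6, Icam2, Zbtb46, Clec9a and the called markers were named after their values were seen. Alternatives covered scaling, filter, pseudocount, voom, moderation, replicate block, length, threshold and libraries left out. The sequence of miR-150 and its target sites were not used here.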

Additional observations from a re-analysis of the deposited data

How the results depend on the processing

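Under every alternative run, Ciita stayed below 0 and uncalled, and so did Cd74 except that it stood at 0.059 without mimic replicates 3, 4 and 6. In that same setting H2-Ab1 was at 0.14, H2-Eb1 at 0.15, H2-DMa at 0.017 and H2-Aa, called higher, at 0.26. With the length correction H2-Ab1 was at 0.027 and H2-Eb1 at 0.047. H2-DMb1 passed as lower with plain library totals (-0.18, limma adjusted p = 0.0490), with upper quartile scaling (-0.21, 0.0418) and in the voom fit (-0.20), where H2-DMa also passed (-0.27). So 1 gene was called lower with either scaling (beside 19.0% of tested genes with upper quartile scaling and 16.4% with plain totals), 2 with voom and 1 higher without the 3 mimic libraries. The upper quartile scaling moved the calls over all genes from 1997 higher and 1895 lower to 1483 and 2470, and leaving out the 3 libraries left 2100 calls in place of 3892.

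Leaving out single libraries gave a log2 fold change of 0.01 to 0.13 for H2-Aa, -0.17 to -0.02 for H2-Ab1, -0.058 to 0.041 for H2-Eb1, -0.15 to -0.05 for Cd74, -0.30 to -0.15 for H2-DMa, -0.22 to -0.13 for H2-DMb1 and -0.23 to -0.10 for Ciita, with 0 to 2 genes called lower. H2-Eb1 was above 0 without control replicate 2 (0.014) or mimic replicate 4 (0.028) or 6 (0.041). The pairs past the threshold numbered 0 to 8, 0 without the 3 libraries, and 9 with the length correction, which was added after the data were seen.

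Same-numbered libraries of the 2 groups did not deviate together (r from -0.06 to 0.06) and only 1 of 5 controls correlated best with its own number. With the replicate block no gene of the 7 was called. With the block and the length correction together H2-Aa was called higher (0.19, limma adjusted p = 0.00841), 1 gene in all, and H2-Ab1 and H2-Eb1 were at 0.021 and 0.044, with 14.7% of tested genes called higher. Replicate 5 has no control, so the block fit draws nothing from that library.

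Among the list genes, upper quartile scaling lost the calls of Jak1, Il10ra, Ctss, Ube2d3 and Cd44 and called Spi1 and Cd83 lower, and plain totals lost those of Jak1, Ube2d3 and Cd44 and called Spi1 and Cst3 lower. Without trend and robust settings the counts were 1 higher for turnover, 1 higher for the myeloid regulators and 0 higher for partners of Cd74. With the replicate block they were 1 lower for the interferon-gamma route, 1 higher and 1 lower for the myeloid regulators, 1 higher for turnover and 0 higher for partners. With voom they were 1 lower for the enhanceosome, 1 lower for the myeloid regulators and 2 lower for partners. Without the 3 libraries they were 1 lower for the interferon-gamma route, 1 lower for the proteases, 1 higher for turnover and 0 either way for partners. With single libraries left out they ranged from 0 to 1 lower for the enhanceosome, 1 to 2 lower for the interferon-gamma route, 1 to 2 higher and 0 to 1 lower for the myeloid regulators, 1 to 2 higher for turnover, and 0 to 1 higher and 0 to 2 lower for partners. The causes were not tested. A planned negative binomial test of the recovered reads was not run, and the voom fit was the count-scale alternative. At about 100 reads per library, Ciita has the widest counting error of the 7 genes.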
